A study of Homo sapiens with 11 samples.

Results

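The 10 genes described here are HSF1, the transcription factor of the heat shock response, and 9 cytosolic chaperones and chaperone partners that are textbook targets of it: HSPA1A, HSPA1B, HSPA8, DNAJB1, HSPH1, HSP90AA1, HSP90AB1, HSPB1 and BAG3. They were taken by symbol from a table of 27671 genes, and all 10 were found in it. The study measured polyadenylated RNA of HEK293T, an immortalised line from human embryonic kidney that expresses the large T antigen of SV40, grown in DMEM with serum. Cells received the compound A8 at 10 µM (3 libraries), A8 at 10 µM with ISRIB (3 libraries), DMSO with ISRIB (called ISRIB below, 2 libraries) or DMSO alone (called vehicle below, 3 libraries). The labels give no dose of ISRIB. They state a treatment of 8 h in the titles and of 4 h in the treatment protocol, and which holds was not settled. Another ISRIB replicate was left out by the submitters for quality, and since the column numbers of the remaining 2 ISRIB libraries do not match their titles, they are called a and b. The replicates, called biological by the submitters, all come from 1 cell line. The study's stated aim was to learn how A8 acts.

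HSF1 is held in an inactive state by chaperones, and when unfolded proteins occupy those chaperones it forms trimers and binds arrays of the unit nGAAn in target promoters. Its cytosolic targets work together: HSP70 proteins bind exposed hydrophobic stretches in a cycle of ATP hydrolysis, J-domain proteins such as DNAJB1 deliver clients to them, nucleotide exchange factors such as HSPH1 and BAG3 release the clients, and HSP90 matures kinases and receptors. ISRIB is a small molecule that activates the nucleotide exchange factor eIF2B, and so blunts the integrated stress response, the program that lowers protein synthesis and induces ATF4 when the initiation factor eIF2α is phosphorylated.

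The promoters of the genes whose transcripts differed with A8, and those of both HSP90 genes for contrast, are printed first, since heat shock units are what the set is known for. Where a gene has several listed starts, the start printed is the one whose window holds such units. Each sequence is the 250 bases before a RefSeq transcript start (GRCh38.p14), 5′ to 3′ on the gene's strand, and capitals mark pairs of heat shock units facing each other, GAANNTTC or TTCNNGAA. A pair has the same GAA and TTC letters on both strands, while the bases between them can differ. The HSPA1A window lies at chr6:31815293-31815542 (+), the HSPA1B window at chr6:31827488-31827737 (+) and the HSPA8 window at chr11:123062137-123062386 (-). The DNAJB1 window, before start 2 of its 3 listed starts, lies at chr19:14518398-14518647 (-). The HSP90AA1 window, before start 2, lies at chr14:102087045-102087294 (-), and the HSP90AB1 window, before start 3, at chr6:44247693-44247942 (+).
HSPA1A: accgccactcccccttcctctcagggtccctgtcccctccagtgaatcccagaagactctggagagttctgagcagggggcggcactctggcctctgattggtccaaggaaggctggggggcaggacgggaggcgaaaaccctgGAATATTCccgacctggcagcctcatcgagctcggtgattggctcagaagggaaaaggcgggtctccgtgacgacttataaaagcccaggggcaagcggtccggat
HSPA1B: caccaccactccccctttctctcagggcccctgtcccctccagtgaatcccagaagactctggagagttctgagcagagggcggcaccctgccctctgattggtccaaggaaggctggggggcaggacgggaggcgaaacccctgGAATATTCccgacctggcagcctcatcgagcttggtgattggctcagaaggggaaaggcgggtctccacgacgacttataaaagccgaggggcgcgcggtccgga
HSPA8: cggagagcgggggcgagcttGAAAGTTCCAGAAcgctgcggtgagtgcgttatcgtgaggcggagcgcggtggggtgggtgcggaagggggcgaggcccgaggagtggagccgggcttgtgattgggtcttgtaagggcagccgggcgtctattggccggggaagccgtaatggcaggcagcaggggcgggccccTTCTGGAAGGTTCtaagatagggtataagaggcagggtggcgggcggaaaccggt
DNAJB1 start 2: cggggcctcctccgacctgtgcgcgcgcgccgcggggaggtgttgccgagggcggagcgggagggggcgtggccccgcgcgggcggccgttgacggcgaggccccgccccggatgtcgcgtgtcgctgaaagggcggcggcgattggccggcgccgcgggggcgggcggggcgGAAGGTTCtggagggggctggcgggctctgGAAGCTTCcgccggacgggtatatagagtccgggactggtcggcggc
HSP90AA1 start 2: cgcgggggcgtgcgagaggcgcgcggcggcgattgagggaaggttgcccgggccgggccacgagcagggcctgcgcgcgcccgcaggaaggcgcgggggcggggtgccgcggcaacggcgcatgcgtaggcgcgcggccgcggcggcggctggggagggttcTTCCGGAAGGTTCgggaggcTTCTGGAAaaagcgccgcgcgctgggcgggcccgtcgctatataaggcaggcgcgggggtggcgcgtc
HSP90AB1 start 3: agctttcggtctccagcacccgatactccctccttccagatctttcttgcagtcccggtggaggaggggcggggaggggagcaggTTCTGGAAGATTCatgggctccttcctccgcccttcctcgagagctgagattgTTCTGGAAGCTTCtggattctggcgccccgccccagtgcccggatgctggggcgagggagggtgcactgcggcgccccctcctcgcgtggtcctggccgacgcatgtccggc

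Among 35116 human promoter windows of the same length, 11.6% held at least 1 such pair and 0.441% held a triple of alternating units, GAANNTTCNNGAA or TTCNNGAANNTTC, which contains 2 overlapping pairs. HSPA1A and HSPA1B each held 1 pair, which began 106 bases before the start in HSPA1A and 105 bases before it in HSPA1B, with the same letters. HSPA8 held 2 triples, beginning 230 and 55 bases before its start, and DNAJB1 start 2 held 2 separate pairs, at 77 and 47 bases. HSP90AA1 start 2 held 1 triple at 88 bases and 1 further pair at 68 bases, and HSP90AB1 start 3 held 2 triples, at 165 and 112 bases. Starts 1 and 3 of DNAJB1, start 1 of HSP90AA1 and starts 1 and 2 of HSP90AB1 held 0 pairs, so 7 of the 14 windows of these genes held at least 1. HSPB1, whose window is not printed, held 1 pair at 182 bases, while the windows of HSPH1 and BAG3 held none with these letters. The HSPA1A and HSPA1B windows also held TATAAA, 30 and 29 bases before the start, against 6.8% of all windows. HSPA1A, HSPA1B and HSPA8 each held 2 CCAAT boxes (CCAAT or ATTGG), against 32% of all windows with at least 1. DNAJB1 held 3, 1 and 1 such boxes before starts 1, 2 and 3, and HSP90AA1 held 1 before start 1. These are matches of letters, and a window without a match says only that these letters are not in it.

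**Figure D1:**
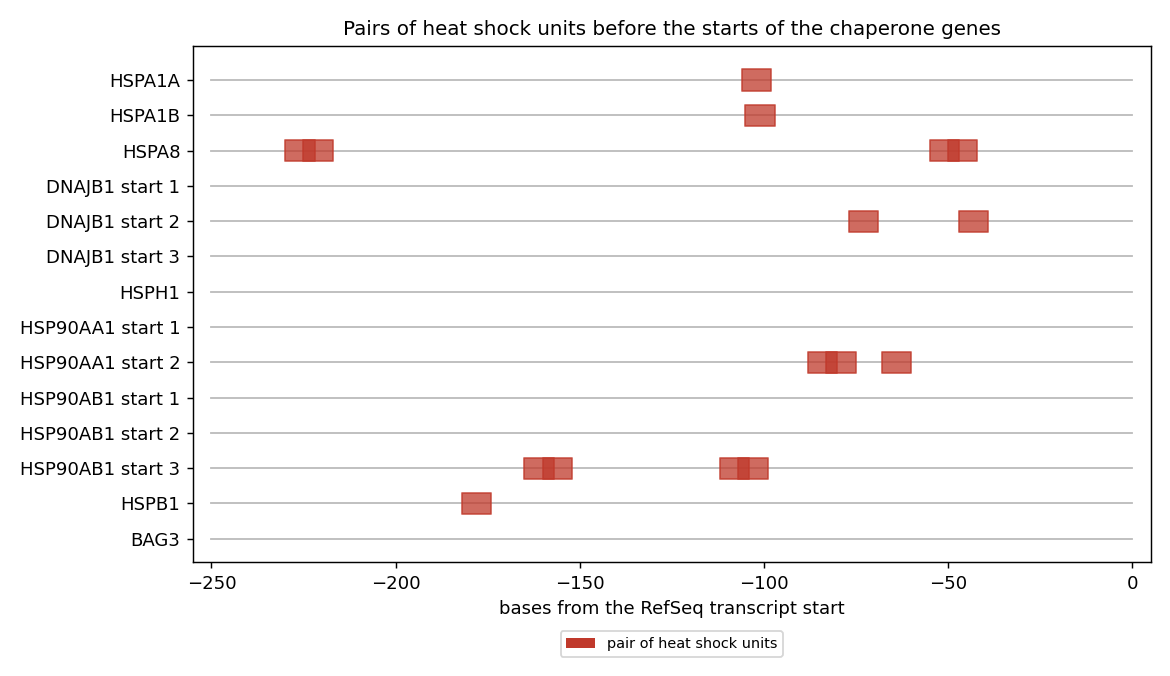
Positions of pairs of heat shock units (red boxes, darker where the pairs of a triple overlap) in the 250 bases before each RefSeq transcript start of the 9 chaperone and partner genes; the x axis is the distance from the start in bases and each row is 1 start. HSPA8 and HSP90AB1 start 3 hold 2 triples each, and HSPA1A and HSPA1B hold 1 pair each at nearly the same place.

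The 11 libraries held 34072107 to 35318111 counts and 17892 to 18017 genes with at least 1 count. Of the 27671 genes, 15591 passed the filter on low counts and were tested, all 10 described genes among them, whose lowest count in any library was 3317. Replicates differed by more than counting error, with a chi-square per degree of freedom of 7.21 to 36.1, and the largest value was between libraries 1 and 3 of A8 with ISRIB. All 6 markers of the HEK293 line that were examined passed the filter, and of 10 markers of blood, endothelium, liver, islet and heart only CD68 did. As a check that the compounds acted, CHAC1, a target of ATF4 that degrades glutathione, was at 13.8 to 21.0 CPM (counts divided by library size, after TMM adjustment in edgeR) with A8, at 3.86 to 4.29 CPM with A8 and ISRIB, at 2.34 to 2.99 CPM with ISRIB and at 4.64 to 5.62 CPM with vehicle. ASNS, the asparagine synthetase and another ATF4 target, was at 242 to 280.2 CPM with A8, 147 to 152 CPM with A8 and ISRIB, 131 to 140.0 CPM with ISRIB and 149 to 163 CPM with vehicle.

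The 10 transcripts were abundant under all 4 conditions. Together they took 1.01% to 1.11% of all counts in the A8 libraries, against 1.28% to 1.43% in the other 8 libraries, so the groups did not overlap. Levels of different genes were set side by side per kilobase of GENCODE transcript, in CPM per kb. HSPA1A and HSPA1B, which are near-identical copies, were counted apart in this ranking. So counted, HSPA8, the constitutive HSP70, led in vehicle cells at 1548 ± 30.5 CPM per kb (SD, n = 3 here and for the other vehicle levels). HSPA1B followed at 1072 ± 27.6, HSPA1A at 842 ± 19.4, HSP90AB1, the constitutive HSP90, at 687 ± 45.6 and HSP90AA1, the inducible HSP90, at 576 ± 11.2 CPM per kb. HSPB1, the small heat shock protein HSP27, stood well below these at 129 ± 16.5 CPM per kb. HSF1 itself was at 104 ± 2.91 CPM per kb and DNAJB1 at 101 ± 0.994 CPM per kb, which did not differ beyond their spread. HSPH1, the HSP110 exchange factor, at 68.2 ± 6.06, and BAG3 at 62.3 ± 2.08 CPM per kb did not differ beyond it either. With A8 the order among the leading genes, so counted, changed in 1 place. HSPA1A averaged 574 ± 38.2 CPM per kb there, below HSP90AB1 at 635 ± 12.4 and beside HSP90AA1 at 553 ± 23.2 CPM per kb (SD, n = 3 each). Both rankings depend on counting the copies apart. Their sum was at 4794 ± 115 CPM with vehicle, above HSPA8 at 3814 ± 75.1 CPM (not per kb). With A8 the sum was at 3271 ± 209 CPM, above HSPA8 at 2825 ± 218 and HSP90AB1 at 1698 ± 33.3 CPM.

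A8 against vehicle asks what the compound alone does. The HSP70 transcripts and DNAJB1, their J-domain partner, were lower with A8, and HSF1, both HSP90 transcripts, HSPH1, HSPB1 and BAG3 did not pass the test. In edgeR's quasi-likelihood test, with p-values adjusted by Benjamini-Hochberg over all genes tested and calls made at an adjusted p under 0.05, 4 of the 10 genes fell and 0 rose. Of all genes tested, 0.0577% were called lower and 0.0834% higher. DESeq2 called 4 of the 10 lower and 0 higher, against 0.421% and 0.428% of the genes to which it gave an adjusted p. At an unadjusted edgeR p under 0.05 there were 6 lower and 0 higher, against 5.34% and 4.9% of all genes tested.

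HSPA1A, the stress-inducible HSP70, was at 1350.4, 1392 and 1532 CPM in the A8 libraries, against 2144, 2049.8 and 2078 CPM in the vehicle libraries. HSPA1B, its near-identical copy, was at 1774, 1786 and 1979 CPM with A8, against 2784, 2672 and 2656 CPM with vehicle. For both copies every A8 library lay below every vehicle library. HSPA1A fell by 0.55 on the log2 scale (SE 0.063, edgeR adjusted p = 0.000282), to 0.682 of the vehicle level, and HSPA1B likewise fell by 0.55 (SE 0.063, edgeR adjusted p = 0.000282), to 0.683 of it. Both calls held in each of 6 fits that left out 1 A8 or vehicle library. In these bulk samples, fewer cells that make a transcript and less of it per cell cannot be told apart.

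HSPA8, which serves as the housekeeping HSP70 for folding and for uncoating of clathrin, was at 2631, 2781 and 3061 CPM with A8, against 3733, 3882 and 3825 CPM with vehicle. The groups did not overlap, and HSPA8 fell by 0.43 on the log2 scale (SE 0.070, edgeR adjusted p = 0.0121), to 0.741 of the vehicle level. DNAJB1, the HSP40 that stimulates the ATPase of HSP70, was at 188, 172 and 181 CPM with A8, against 229.7, 229.4 and 226 CPM with vehicle. Its groups did not overlap either, and it fell by 0.34 (SE 0.056, edgeR adjusted p = 0.0154), to 0.79 of the vehicle level. These 2 calls depended on single libraries. In edgeR the adjusted p of HSPA8 was 0.131 without A8 replicate 1, 0.0983 without A8 replicate 2 and 0.0905 without vehicle replicate 2, and below the threshold in the other 3 fits. That of DNAJB1 was 0.135 without A8 replicate 2, 0.0813 without A8 replicate 3, 0.0513 without vehicle replicate 1 and 0.0905 without vehicle replicate 2. Its log2 fold change stayed between -0.37 and -0.31 over the 6 fits, and that of HSPA8 between -0.49 and -0.38.

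The other 6 genes gave smaller values that did not pass the test. BAG3, an exchange factor that couples HSP70 to selective autophagy, was at 132, 144 and 139.7 CPM with A8, against 165, 154 and 161 CPM with vehicle, without overlap, at a log2 fold change of -0.21 (SE 0.069, edgeR adjusted p = 0.303). HSPB1, a chaperone that holds unfolded proteins without ATP, was at 97.1 to 108 CPM with A8 and at 102 to 132 CPM with vehicle, at -0.21 (SE 0.098, edgeR adjusted p = 0.484). HSP90AB1, at 1675 to 1736 CPM with A8 and 1755 to 1977 CPM with vehicle, had groups just apart and a log2 fold change of -0.11. HSPH1 was at -0.09 and HSP90AA1 at -0.06, both with overlapping groups. HSF1 was at 227, 214 and 214 CPM with A8, against 227, 227 and 216 CPM with vehicle, at -0.03 with a 95% interval of -0.15 to 0.08. All 10 fitted log2 fold changes were below 0, against 48.2% of all genes tested, and 6 of the 10 genes had every A8 library below every vehicle library, against 8.13% of all genes tested. HSF1 turned to 0.07 after a correction for GC content, so that count is then 9.

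**Figure D2:**
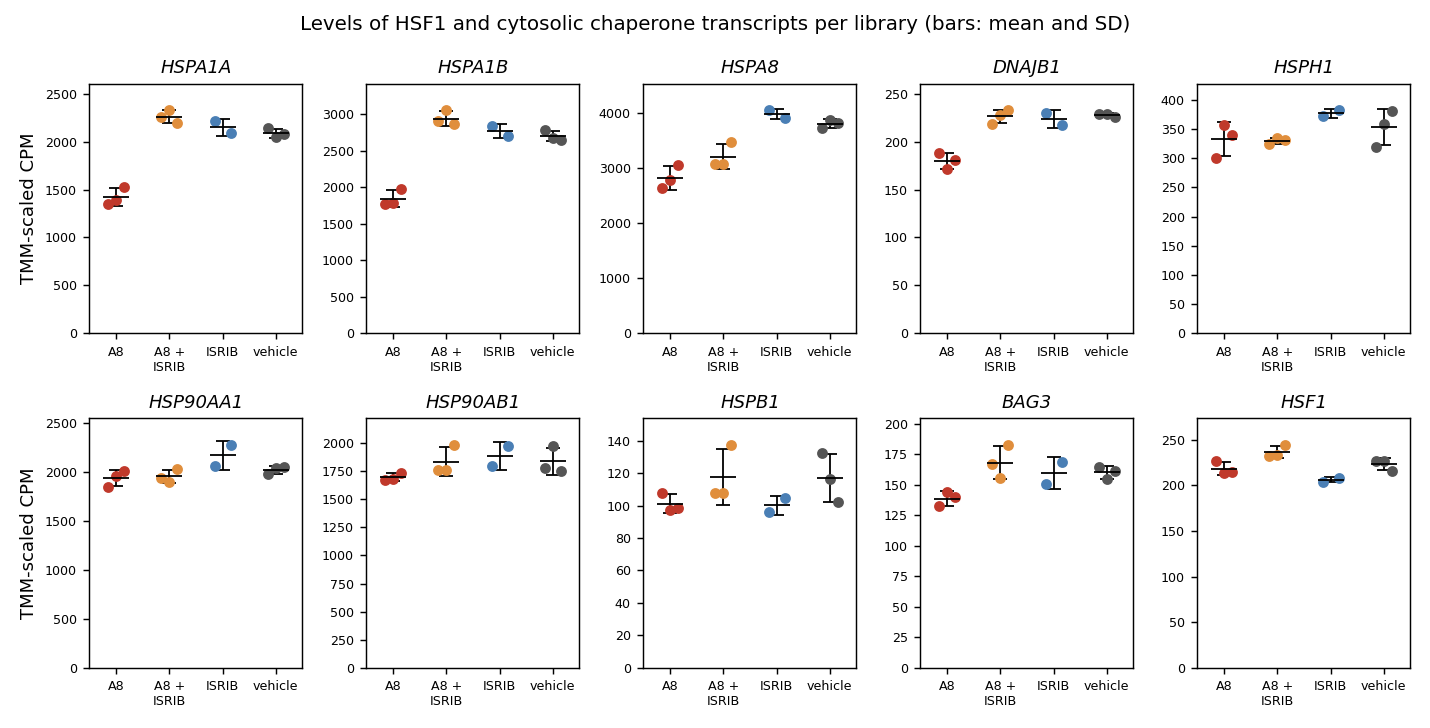
Level of each of the 10 genes in every library, in TMM-scaled CPM on y axes that start at 0, by group on the x axis; points are libraries and bars are the mean and SD (n = 3, and n = 2 for ISRIB). The A8 libraries of HSPA1A lie between 1350.4 and 1532 CPM, below the libraries of the other 3 groups, while HSPA8 is low in both groups that received A8.

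A8 with ISRIB against A8 asks how the levels under A8 differ when ISRIB is added. HSPA1A, HSPA1B and DNAJB1 were higher with A8 and ISRIB than with A8, whereas HSPA8 did not pass the test. edgeR called 3 of the 10 higher and 0 lower, against 0.0192% of all genes tested called higher and 0.16% lower. DESeq2 called 3 higher and 0 lower as well, against 0.0523% and 0.268% of the genes with an adjusted p. At an unadjusted edgeR p under 0.05 there were 7 higher and 0 lower, against 2.73% and 3.18% of all genes tested. This comparison shares its A8 libraries with A8 against vehicle, so the fold changes of the 2 comparisons are not independent.

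HSPA1A was at 2257, 2329 and 2196 CPM with A8 and ISRIB, against 1350.4, 1392 and 1532 CPM with A8. It rose by 0.67 on the log2 scale (SE 0.063, edgeR adjusted p = 1.65e-05), to 1.59 times the A8 level. HSPA1B, at 2904, 3057 and 2872 CPM with A8 and ISRIB against 1774 to 1979 CPM with A8, rose by 0.67 as well (SE 0.063, edgeR adjusted p = 1.65e-05). Every library with ISRIB added lay above every A8 library for both copies, and both calls held in each of 6 fits that left out 1 library. DNAJB1 was at 219, 228 and 233 CPM with A8 and ISRIB, against 172 to 188 CPM with A8 and again without overlap, and rose by 0.33 (SE 0.056, edgeR adjusted p = 0.0152). That adjusted p was 0.118 without A8 with ISRIB replicate 2, 0.143 without A8 replicate 2 and 0.0901 without A8 replicate 3. Without A8 with ISRIB replicate 3, of the pair with the largest chi-square, it was 0.0444.

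HSPA8 was at 3079, 3069 and 3472 CPM with A8 and ISRIB, against 2631 to 3061 CPM with A8. All 3 values lay above the A8 libraries and below the vehicle libraries, and the log2 fold change against A8 was 0.18 (SE 0.070, edgeR adjusted p = 0.692, 95% interval 0.04 to 0.33). BAG3, at 167, 155 and 182 CPM with A8 and ISRIB, had groups apart at a log2 fold change of 0.28 (SE 0.069, edgeR adjusted p = 0.267). HSF1 was at 0.12, HSPB1 at 0.22 and HSP90AB1 at 0.11, none of them called, and HSP90AA1 at 0.01 and HSPH1 at -0.01 lay next to 0. Without overlap, 7 of the 10 genes were higher with ISRIB added, against 5.09% of all genes tested.

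ISRIB against vehicle shows what ISRIB does without A8. edgeR called 0 of the 10 genes, DESeq2 called 0, and 0 had an unadjusted edgeR p under 0.05, while of all genes tested edgeR called 0% in either direction. DESeq2 called 0.0093% of its genes higher and 0.307% lower, and 4% of all genes tested were higher and 5.59% lower at an unadjusted edgeR p. HSPA1A was at 2212 and 2088 CPM with ISRIB, against 2049.8 to 2144 CPM with vehicle, and HSPA8 at 4053 and 3920.3 CPM with ISRIB, against 3733 to 3882 CPM with vehicle. Their log2 fold changes against vehicle were 0.04 (95% interval -0.11 to 0.19) for HSPA1A and 0.06 (95% interval -0.10 to 0.23) for HSPA8. The lowest value was that of HSPB1, at -0.23, and the highest that of HSP90AA1, at 0.10. HSF1, at 204 and 209 CPM with ISRIB, lay below its vehicle libraries at -0.11 (SE 0.061, edgeR adjusted p = 0.566). After a correction for GC content it was at 0.041. Of the 15591 genes tested, 2349 had both ISRIB libraries below every vehicle library, and 2168 had both above.

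A8 with ISRIB against ISRIB gives the effect of A8 when ISRIB is present on both sides. edgeR called 0 of the 10 genes, against 0.00641% of all genes tested in each direction. At an unadjusted edgeR p under 0.05 there were 1 higher gene, HSF1, and 3 lower genes, HSPA8, HSPH1 and HSP90AA1, against 4.75% higher and 3.57% lower over all genes tested. DESeq2 called 1 lower gene, HSPA8, and 0 higher, against 0.154% lower and 0.369% higher over its genes. HSPA1A was at 0.07 and HSPA1B at 0.09 on the log2 scale, with 95% intervals of -0.08 to 0.22 and -0.06 to 0.24. HSPA8 was at -0.31 (SE 0.078, edgeR adjusted p = 0.253, DESeq2 adjusted p = 0.0235), and each of its libraries with A8 and ISRIB lay below both ISRIB libraries. Without A8 with ISRIB replicate 3 it was at -0.37 (edgeR adjusted p = 0.0623). HSF1, at 232, 234 and 244 CPM with A8 and ISRIB, lay above both ISRIB libraries at 0.20 (SE 0.061, edgeR adjusted p = 0.414). Of the 15591 genes tested, 1924 had every library with A8 and ISRIB below both ISRIB libraries, and 1998 had every one above. HSPH1, at 325 to 335 CPM with A8 and ISRIB against 372 and 382 CPM with ISRIB, was at -0.19 (SE 0.080, edgeR adjusted p = 0.56). HSP90AA1 was at -0.15. After a correction for GC content these values were 0.13 for HSF1, -0.25 for HSPA8, -0.09 for HSPH1 and -0.08 for HSP90AA1.

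Against vehicle, A8 with ISRIB gave 0 calls among the 10 genes by edgeR and 0 by DESeq2, while over all genes edgeR called 0% higher and 0.0192% lower and DESeq2 0.0515% higher and 0.172% lower. At an unadjusted edgeR p under 0.05 there was 1 gene, HSPA8, which was lower, against 3.66% higher and 4.04% lower over all genes tested. Its log2 fold change was -0.25 (SE 0.070, edgeR adjusted p = 0.38). HSPA1A at 0.11, HSPA1B at 0.12 and HSF1 at 0.08 had every library above the vehicle libraries without being called, as had 5.79% of all genes tested. DNAJB1 was at -0.01, with a 95% interval of -0.13 to 0.11. This comparison, A8 against vehicle and ISRIB against vehicle share the 3 vehicle libraries.

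The interaction tests whether the effect of A8 differed with and without ISRIB, as the difference of the 2 log2 fold changes. It was 0.63 for HSPA1A (SE 0.094, edgeR adjusted p = 0.0243) and 0.64 for HSPA1B (SE 0.094, edgeR adjusted p = 0.0243). These 2 of the 10 genes were called higher, and 0 lower, against 0.0128% of all genes tested in each direction. DESeq2 called these and DNAJB1, 3 in all and 0 lower, against 0.345% higher and 0.0914% lower over its genes. At an unadjusted edgeR p under 0.05 there were 6 higher and 0 lower, against 5.04% and 3.44% of all genes tested. DNAJB1 was at 0.36 (SE 0.085, edgeR adjusted p = 0.267, DESeq2 adjusted p = 0.0179), HSPB1 at 0.44, BAG3 at 0.28 and HSF1 at 0.23, none called by edgeR. For HSPA8 the difference was 0.12 with a 95% interval of -0.10 to 0.34, which includes 0. The interaction calls rest on few libraries. They held without A8 with ISRIB replicate 3 (edgeR adjusted p = 0.00673), A8 replicate 3 (0.0241) and vehicle replicate 3 (0.0282). The adjusted p was 0.0526 and 0.145 without A8 with ISRIB replicates 1 and 2, 0.101 and 0.0748 without A8 replicates 1 and 2, 0.117 and 0.356 without ISRIB libraries a and b, and 0.0536 and 0.109 without vehicle replicates 1 and 2. After a correction for GC content the differences were 0.52 for HSPA1A and 0.54 for HSPA1B, and the edgeR adjusted p was 0.324. DNAJB1 was then at 0.35, HSPB1 at 0.25, BAG3 at 0.22, HSF1 at 0.05 and HSPA8 at 0.19.

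**Figure D3:**
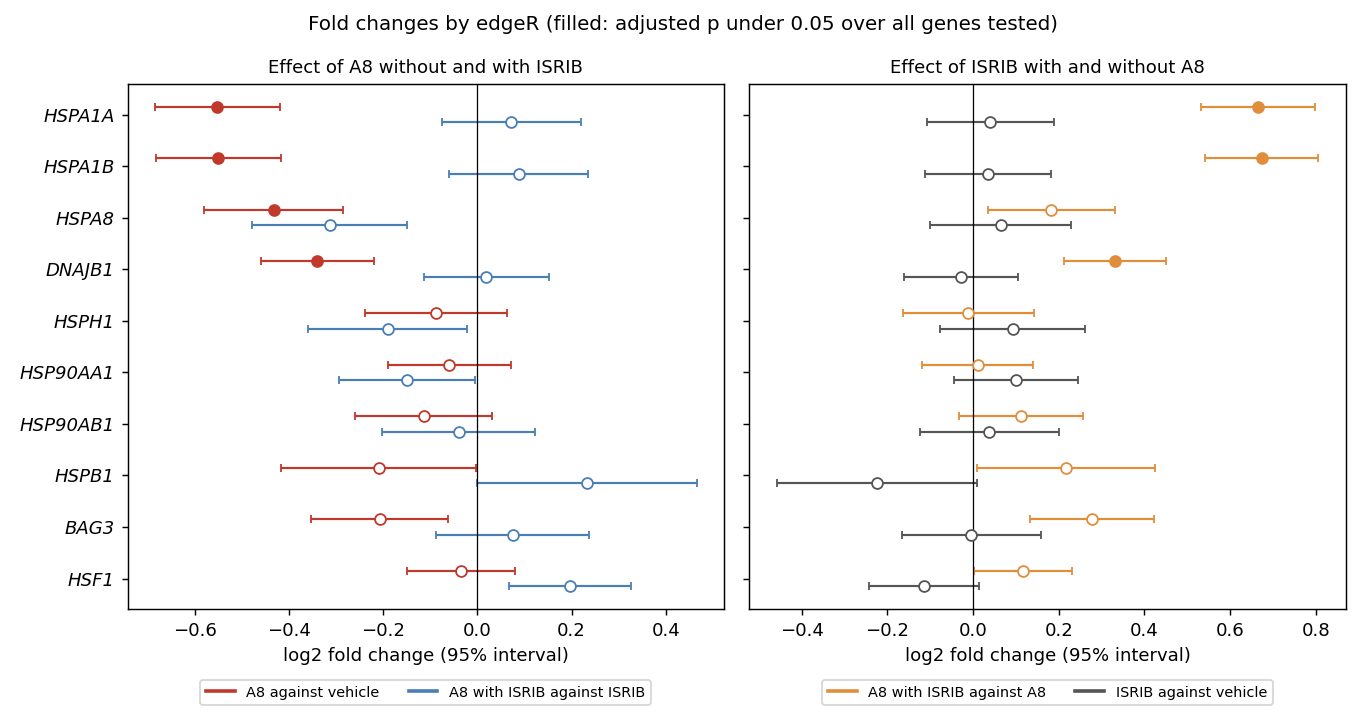
Log2 fold changes of the 10 genes with 95% intervals by edgeR, filled where called; the left panel gives A8 against vehicle and A8 with ISRIB against ISRIB, the right panel A8 with ISRIB against A8 and ISRIB against vehicle. HSPA1A and HSPA1B lie at -0.55 in A8 against vehicle and at 0.07 and 0.09 in A8 with ISRIB against ISRIB, whereas HSPA8 lies at -0.43 and -0.31.

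The copies HSPA1A and HSPA1B encode the same stress-inducible HSP70, and reads cannot always be assigned to 1 of them. Their GENCODE transcripts were 88.7% identical over the alignment and their printed promoter windows 93.6%. Of all 100-base windows of the transcripts, 69.9% of those of HSPA1A and 68.8% of those of HSPA1B occurred without a mismatch in the other copy, so the split of counts between them is uncertain. The ratio of HSPA1A to HSPA1B counts was 0.761 to 0.783 over all 11 libraries, with no group apart. Summed as 1 feature, the copies were at 3124, 3178 and 3511 CPM with A8, at 5162, 5386 and 5067 CPM with A8 and ISRIB, at 5049 and 4793 CPM with ISRIB, and at 4927, 4722 and 4734 CPM with vehicle. The sum fell by 0.55 on the log2 scale with A8 against vehicle (SE 0.064, edgeR adjusted p = 0.000329). It rose by 0.67 with A8 and ISRIB against A8 (SE 0.064, edgeR adjusted p = 2.19e-05). Its interaction was 0.63 (SE 0.096, edgeR adjusted p = 0.0413). Counting the copies as 1, edgeR called 3 of the described genes lower in A8 against vehicle, against 0.0513% of all genes tested. It called 2 higher in A8 with ISRIB against A8, against 0.0128%. Of the other described genes, HSPB1 shared 5.06%, HSP90AA1 2.14% and HSP90AB1 1.59% of such windows with pseudogenes or other annotated genes, and the rest shared 0%.

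**Figure D4:**
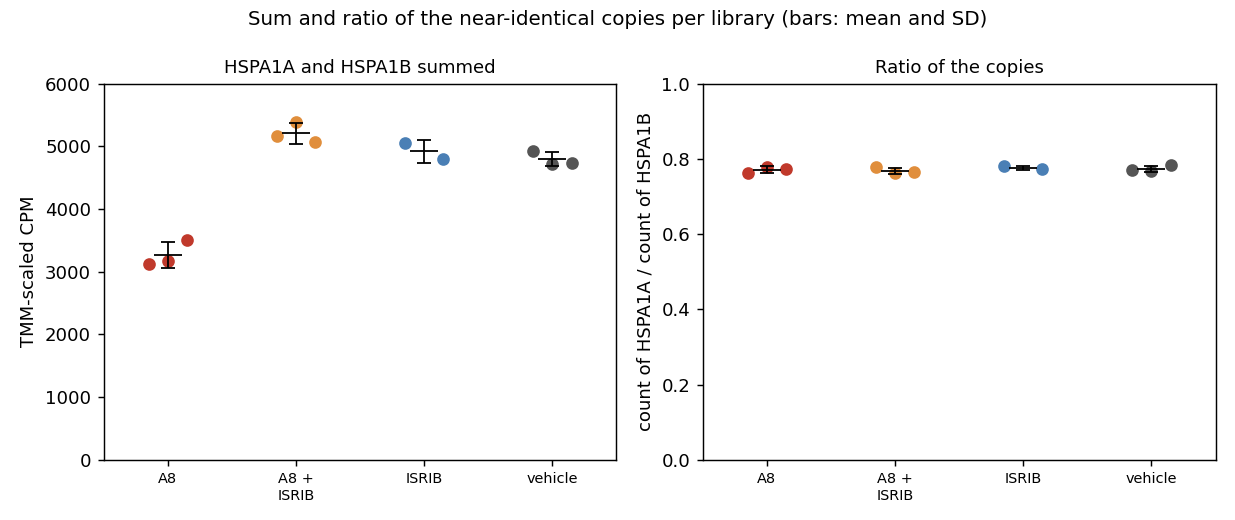
Left, the summed level of HSPA1A and HSPA1B per library in TMM-scaled CPM; right, the ratio of their counts; groups are on the x axis, points are libraries, and bars are the mean and SD (n = 3, and n = 2 for ISRIB). The sum is 3124 to 3511 CPM with A8 and 4722 to 5386 CPM in the other 8 libraries, while the ratio stays between 0.761 and 0.783.

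HSPA1L, a testis-enriched HSP70 gene next to HSPA1A whose upstream window overlaps that of HSPA1A on the opposite strand, had 8 to 28 counts per library. The overlap comes from RefSeq's promoter windows. Its log2 fold change with A8 against vehicle was -0.38 with an SE of 0.387 (edgeR adjusted p = 0.79), so a change of the size seen in HSPA1A was not detectable at this depth.

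Other parts of the chaperone network were examined as lists. In all 6 comparisons edgeR called 0 genes among 16 other HSF1-induced genes that passed the filter of 18 listed, 16 partners of HSP70 and HSP90, 8 subunits of the cytosolic chaperonin TRiC, 4 relatives of HSP70 and HSP90 in the endoplasmic reticulum and mitochondria, and 5 HSF family members and regulators. Of all genes tested, at most 0.0834% were called higher and 0.16% lower in any comparison, so 0 calls in these lists is near the background. In A8 against vehicle the median log2 fold change was -0.21 over the 10 described genes, -0.07 over the other HSF1-induced genes, -0.06 over the partners, -0.04 over TRiC, -0.09 over the relatives and 0.06 over the HSF family, beside 0.01 over all genes tested. At an unadjusted edgeR p under 0.05 there were 3 lower genes among the other HSF1-induced genes, 1 among the partners, 0 in TRiC, 2 among the relatives and 1 in the HSF family, and 0 higher genes in each, against 5.34% lower and 4.9% higher over all genes tested. Fitted values there were below 0 for 15 of the 16 other HSF1-induced genes and 12 of the 16 partners. So were 6 of 8 TRiC subunits, 4 of 4 relatives and 2 of 5 HSF family genes, against 48.2% of all genes tested. Groups were apart and lower for 4 other HSF1-induced genes, 1 partner, 0 TRiC subunits, 2 relatives and 1 HSF family gene, against 8.13% of all genes. In A8 with ISRIB against A8 the medians were 0.20 over the described genes, 0.05 over the other HSF1-induced genes, 0.05 over the partners, 0.03 over TRiC, -0.01 over the relatives and -0.05 over the HSF family, beside 0.00 over all genes tested.

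DESeq2 called members of these lists in 2 comparisons, and the genes are named here because it called them. Over all its genes it called 0.421% lower in A8 against vehicle and 0.154% lower in A8 with ISRIB against ISRIB. HSPA5, the HSP70 of the endoplasmic reticulum also known as BiP, was at 424, 466 and 489 CPM with A8, against 530.4, 565 and 579 CPM with vehicle, without overlap. Its log2 fold change was -0.28 (edgeR adjusted p = 0.124, DESeq2 adjusted p = 0.0124). With A8 and ISRIB it was at 451, 455 and 501 CPM, against 589.6 and 595 CPM with ISRIB, also without overlap, at a log2 fold change of -0.34 (edgeR adjusted p = 0.211, DESeq2 adjusted p = 0.00982). Of the 15591 genes tested, 1268 were lower without overlap in A8 against vehicle and 1924 in A8 with ISRIB against ISRIB. HSP90B1, the HSP90 of the endoplasmic reticulum, was at 579, 558 and 634 CPM with A8 and ISRIB, against 711 and 775 CPM with ISRIB. It was at -0.33 there (edgeR adjusted p = 0.211, DESeq2 adjusted p = 0.00879) and at -0.15 in A8 against vehicle. Of the 4 ATF4 targets listed, the checks CHAC1 and ASNS among them, edgeR called 4 higher in A8 against vehicle, against 0.0834% of all genes tested. It called 4 lower in A8 with ISRIB against A8, against 0.16% of all genes tested. These are the opposite signs of the HSPA1 copies. SLC6A9, a glycine transporter, was at 50.1 to 65.8 CPM with A8, at 16.8 to 18.0 CPM with A8 and ISRIB, at 15.9 and 17.8 CPM with ISRIB and at 25.5 to 31.4 CPM with vehicle. Its log2 fold change was 0.99 in A8 against vehicle and -1.72 in A8 with ISRIB against A8 (edgeR adjusted p = 0.000119 and 1.29e-07). It was also called in A8 with ISRIB against vehicle, at -0.73 (edgeR adjusted p = 0.0168). PSAT1, an aminotransferase of serine synthesis, was at 130.3 to 144 CPM with A8, at 77.5 to 79.2 CPM with A8 and ISRIB, at 81.9 and 84.9 CPM with ISRIB and at 89.4 to 97.3 CPM with vehicle. On the log2 scale it was at 0.53 in A8 against vehicle and at -0.80 in A8 with ISRIB against A8 (edgeR adjusted p = 0.000282 and 1.49e-06). In the interaction edgeR called these 2 genes, SLC6A9 at -0.95 (edgeR adjusted p = 0.0443) and PSAT1 at -0.62 (edgeR adjusted p = 0.0243). Of all genes tested, 0.0128% were called lower there.

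**Figure D5:**
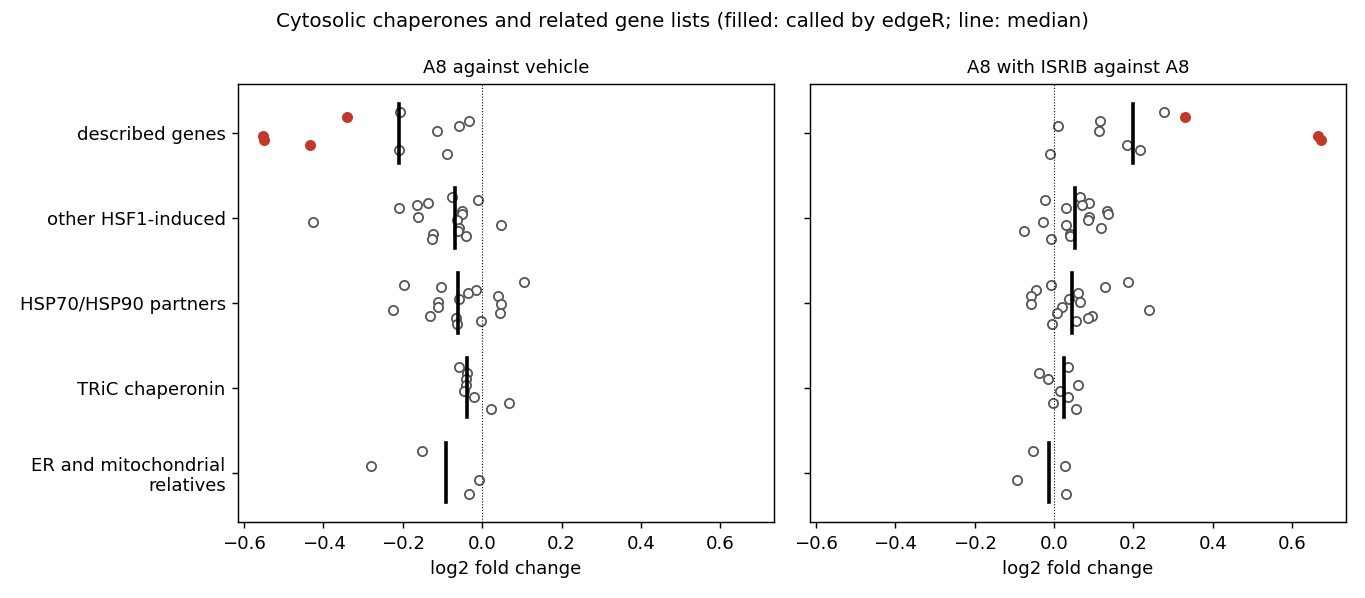
Log2 fold change of each tested gene by list, for A8 against vehicle (left) and A8 with ISRIB against A8 (right), with a bar at each list's median and red points for genes called by edgeR. The calls are among the described genes, 4 on the left and 3 on the right, and 0 in the other 4 lists drawn. Of all genes tested, 0.0577% were called lower on the left and 0.0192% higher on the right, so 0 is near the background.

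The genes whose pattern lay nearest to that of the summed HSPA1 copies were found by the root mean square difference of centred log2 CPM over the 11 libraries, among 9455 genes that are no members and averaged at least 3 log2 CPM. The nearest was SRXN1, sulfiredoxin, which repairs oxidised peroxiredoxins, at 0.143. Its log2 fold change was -0.41 in A8 against vehicle and 0.32 in A8 with ISRIB against A8, which share the A8 libraries. CACTIN-AS1, an antisense transcript, followed at 0.162, JUNB, a subunit of AP-1, at 0.162, HEXIM1, an inhibitor of the elongation factor P-TEFb, at 0.170, and SDF2L1, a chaperone cofactor of the endoplasmic reticulum, at 0.177. The median over all candidates was 0.296. Measured the same way, DNAJB1 was at 0.144, BAG3 at 0.193 and HSPA8 at 0.204, while HSF1, at 0.268, and HSPH1, at 0.272, were near the median of the candidates. None of the 5 nearest genes was called by edgeR in A8 against vehicle, where the lowest adjusted p was 0.0673 for JUNB. The counting strand is not given in the sources used here, so CACTIN-AS1 and the gene it overlaps cannot be told apart with certainty.

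The authors' deposited table of A8 against vehicle, a DESeq2 result over 20395 genes, lists HSPA1A at -0.56 (adjusted p = 0.00951), HSPA1B at -0.55 (0.0118), HSPA8 at -0.43 (1.73e-08) and DNAJB1 at -0.34 (0.000169). These are the same 4 genes of the 10, all lower, and over the 13671 genes to which that authors' deposited table gives an adjusted p it calls 0.139% lower and 0.336% higher. In that authors' deposited table the standard error of HSPA1A was 0.133, against 0.063 in the edgeR fit. The authors' deposited tables of ISRIB against vehicle and of A8 with ISRIB against vehicle call 0 of the 10. Over all genes with an adjusted p, the authors' deposited table of ISRIB against vehicle calls 0.00623% higher and 0.0436% lower, and that of A8 with ISRIB against vehicle calls 0.0249% in each direction, so 0 of 10 is near the background. The authors' deposited table of A8 with ISRIB against vehicle lists HSPA8 at -0.25 with an adjusted p of 0.0992. Which libraries entered the authors' fits is not known.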

How the data were processed

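RNA of 11 libraries of HEK293T cells was analysed from a deposited table of whole-number read counts per gene symbol. The submitters' processing notes name the build GRCh37 and the tools DESeq and DESeq2. Which program aligned the reads, which one counted them, whether it used strand, and which annotation it read is not given in the sources used here. The authors also deposited 3 result tables with base means (a signal of normalised counts over the libraries), log2 fold changes, a Wald score, p-values and their adjusted form, as named in the headers and deposited by the authors. No per-sample column went unused (0).

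Counts were filtered by edgeR's filterByExpr by group, scaled by TMM, and fitted for all 11 libraries as 4 group means with edgeR 4.0.16 (quasi-likelihood) in R 4.3.3, with Benjamini-Hochberg adjustment over all genes tested and calls at an adjusted p under 0.05. DESeq2 1.42.0 gave an alternative test, with limma 3.58.1 and Python 3.11.15 used beside it. Intervals of fold changes are 95% and include the spread between libraries. Promoters came from RefSeq tables of GRCh38.p14, so no position in the files' build is printed. Transcript sequences, their lengths and GC content came from GENCODE, with 1 transcript taken per gene.

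All 10 genes are named in each comparison. Genes of other lists are named where edgeR called them (up to 3 per comparison), apart from HSPA1L, ASNS, CHAC1, the 5 genes nearest in pattern, and HSPA5 and HSP90B1, which were chosen after their values were seen, for their DESeq2 calls. The genes and lists were chosen with earlier results of these data known, so counts over them are descriptions. Library columns were matched to samples by title; the 2 ISRIB columns were matched to their group only.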

Additional observations from a re-analysis of the deposited data

Results flagged for a closer look

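The effect of A8 on HSPA1A and HSPA1B, the stress-inducible HSP70 copies, differed with and without ISRIB by a test of the difference itself. The log2 fold change of A8 with ISRIB against ISRIB exceeded that of A8 against vehicle by 0.63 for HSPA1A and by 0.64 for HSPA1B (SE 0.094 and edgeR adjusted p = 0.0243 for each). The copies share most of their sequence, so these are not 2 independent results, and their sum gave 0.63 (edgeR adjusted p = 0.0413). Leaving out any of 8 of the 11 libraries raised the adjusted p of both above the threshold. After a correction for GC content the differences were 0.52 for HSPA1A and 0.54 for HSPA1B, and neither was called (edgeR adjusted p = 0.324).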

How the results depend on the processing

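The calls of HSPA1A and HSPA1B in A8 against vehicle and in A8 with ISRIB against A8 held under every alternative run, namely other scaling, filters, fits, the block, GC correction and each library left out. Among the counts of called genes, DESeq2 and the fit without a filter each gave 1 lower gene (HSPA8) in A8 with ISRIB against ISRIB (0.154% and 0.0612% of all genes were called lower there), GC correction gave 0 (0% higher) and the summed copies 1 higher (0.00641%) in the interaction, and requiring a log2 fold change beyond 0.5 in size gave 2 lower in A8 against vehicle (0.0321%). With 1 library left out these counts ranged from 2 to 4 lower in A8 against vehicle (0.0193% to 0.0451% of all genes), from 2 to 3 higher in A8 with ISRIB against A8 (0.0129% to 0.0257%) and from 0 to 2 higher in the interaction (0% to 0.0193%). Same-numbered libraries correlated at -0.467 to 0.429, and not every library correlated best with its own number. The labels state no pairing, and with 3 libraries a group these correlations cannot settle whether the numbers pair the samples. With the replicate number as a block, edgeR called 3 genes lower in A8 against vehicle (0.0263% of all genes). It called 2 higher in A8 with ISRIB against A8 (0.0131%) and 0 in A8 with ISRIB against vehicle (0%). With block and GC correction it called 2 lower in A8 against vehicle (0.0131%). No block could be fitted for ISRIB libraries, whose columns carry no number of the labels, and the fit of only the compared groups does not exist for the interaction. DNAJB1 in A8 against vehicle was also lost with GC correction (adjusted p = 0.0702) and the block (0.130), and in A8 with ISRIB against A8 with only the compared groups (0.0644) and the block (0.152). With block and GC correction together HSPA8 in A8 against vehicle was lost (0.0853), as was DNAJB1 in A8 against vehicle (0.220) and in A8 with ISRIB against A8 (0.200). GC content correlated with fold change across genes at Spearman -0.29 in A8 against vehicle, -0.47 in ISRIB against vehicle and 0.45 in the interaction. The correlation was 0.32 in A8 with ISRIB against ISRIB, 0.15 in A8 with ISRIB against A8 and -0.18 in A8 with ISRIB against vehicle. Signs turned only for values that were not called. With GC correction they became 0.073 for HSF1 in A8 against vehicle, 0.0012 for DNAJB1, 0.069 for BAG3 and 0.041 for HSF1 in ISRIB against vehicle, 0.014 for HSP90AB1 in A8 with ISRIB against ISRIB, 0.038 for HSPH1 in A8 with ISRIB against A8, 0.036 for DNAJB1 and 0.027 for HSP90AB1 in A8 with ISRIB against vehicle, and 0.031 for HSPH1 in the interaction. With block and GC correction they were 0.072 for HSF1 in A8 against vehicle, 0.036 for HSPH1 in A8 with ISRIB against A8, and 0.034 for DNAJB1 and 0.021 for HSP90AB1 in A8 with ISRIB against vehicle. With 1 library left out, log2 fold changes that crossed 0 ranged, in A8 with ISRIB against ISRIB, from -0.023 to 0.058 for DNAJB1, from -0.11 to 0.029 for HSP90AB1 and from -0.0094 to 0.16 for BAG3. In A8 with ISRIB against A8 they ranged from -0.078 to 0.042 for HSPH1 and from -0.022 to 0.034 for HSP90AA1. In A8 with ISRIB against vehicle they ranged from -0.027 to 0.015 for DNAJB1, from -0.059 to 0.054 for HSP90AB1 and from -0.12 to 0.10 for HSPB1. In ISRIB against vehicle they ranged from -0.068 to 0.014 for DNAJB1, from -0.030 to 0.11 for HSP90AB1 and from -0.090 to 0.079 for BAG3.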

Other observations

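HSPA8 and the endoplasmic reticulum relative HSPA5 stood lower in both groups that received A8. HSPA8 was at -0.43 in A8 against vehicle and at -0.31 in A8 with ISRIB against ISRIB, which share no library, and HSPA5 was at -0.28 and -0.34 there. edgeR called HSPA8 in A8 against vehicle and none of the other 3 values, while DESeq2 called all 4 (adjusted p = 6.5e-07 and 0.0235 for HSPA8, 0.0124 and 0.00982 for HSPA5). Over all its genes DESeq2 called 0.421% lower in A8 against vehicle and 0.154% lower in A8 with ISRIB against ISRIB. After a correction for GC content HSPA8 was at -0.44 and -0.25 in these comparisons (edgeR adjusted p = 0.0478 and 0.721). No such value is given for HSPA5. HSPA5 was picked after its values were seen. CHAC1, the ATF4 target, was lower with ISRIB than with vehicle at -0.97 on the log2 scale and did not pass edgeR's test (adjusted p = 0.237), while DESeq2 called it (adjusted p = 0.00284). DESeq2 also called SLC6A9 lower there, at -0.77 (edgeR adjusted p = 0.0897, DESeq2 adjusted p = 6.14e-06), 2 of the 4 ATF4 targets listed against 0.307% of its genes, and all 4 were lower at an unadjusted edgeR p under 0.05, against 5.59% of all genes tested.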
